A study of Homo sapiens with 8 samples.

Results

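The genes of the EGF receptor family described here are 10 of the 15852 genes listed in the count table, taken by symbol. They comprise the receptors EGFR, ERBB2 and ERBB3, the ligands AREG, EREG, HBEGF, TGFA and NRG1, and the growth factor receptors MET and IGF1R. All 10 were found, and 9 had enough counts to be tested, EREG being too low. KYSE150 is an established line of squamous carcinoma cells of the esophagus. Its poly(A) RNA was sequenced in 4 libraries with the genotype label Control and 4 with the label ShBOLA3-L, a knockdown of the L isoform of BOLA3, which helps to build iron-sulfur proteins in mitochondria. Both groups carry the treatment label None. The labels used here name no control construct, clone or culture, so the spread within a group may be technical. The p-values would then set the group difference only against the spread between these libraries, not against that between cultures or constructs.

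Receptors of this family are transmembrane tyrosine kinases that pair up when a ligand binds and then signal through the RAS-ERK and PI3K-AKT routes. EGFR binds AREG, EREG, HBEGF and TGFA, ERBB3 binds NRG1 and has little kinase activity of its own, and ERBB2 has no known ligand and serves as the partner of the others. The ligands are made as membrane proteins and are released by ADAM proteases, and EGFR signalling drives growth of squamous epithelium.

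The libraries held 31178036 to 35147860 counts, at which 3 counts correspond to 0.0854 to 0.0962 CPM (counts scaled to library size). In controls BOLA3 stood at 20.8 ± 1.26 CPM, and after knockdown at 6.58 ± 0.531 CPM (SD, n = 4 per group), counted over all its transcripts, so the L isoform was not measured apart. Of 12 squamous epithelial markers all 12 could be tested, of which 11 fell and EPCAM rose (log2 change 0.21), and their summed level was 6012 to 6076 CPM in controls and 3963 to 4465 CPM after knockdown, with KRT5 (3132 and 1936 CPM on average) making up most of the difference. Among all tested genes 15.6% fell and 15.0% rose. The summed level of 7 listed fibroblast markers was 9.94 to 14.8 CPM in controls and 4.53 to 7.26 CPM after knockdown, of 8 leukocyte markers 78.3 to 84.9 and 74.6 to 80.3 CPM, nearly all of it CD68, and of 6 listed endothelial markers 1.09 to 2.01 and 1.957 to 2.76 CPM. COL1A1, which made up most of the fibroblast sum, fell from 11.7 to 4.80 CPM (log2 change -1.28, edgeR adjusted p 3.4e-05), LUM fell (-1.53), and CDH5, most of the endothelial sum, rose from 0.993 to 1.71 CPM (0.79, adjusted p 0.012). PTPRC, CD3E, PECAM1 and DCN reached at most 5, 1, 1 and 2 counts in any library. The part of these marker shifts in the results below was not tested. BOLA3-L knockdown replicate 1 stood apart from the rest of its group: relative to the group mean its genes were 0.11 higher on the log2 scale in the fifth of genes with the lowest transcript GC content and 0.17 lower (-0.17) in the fifth with the highest, where the other 7 libraries lay between -0.06 and 0.07.

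EGFR was the most abundant of these mRNAs per length in every library. On the deposited FPKM scale (counts scaled for gene length and library size), its level in controls was 82.8 ± 1.14 (SD, n = 4), which placed it at rank 742 of all 15852 listed genes. MET, the receptor of hepatocyte growth factor, followed at 34.4 ± 0.473 FPKM, then the ligand AREG at 18.5 ± 1.22, ERBB3 at 14.4 ± 0.382 and ERBB2 at 11.8 ± 0.631 FPKM. TGFA (10.97 ± 0.492 FPKM), NRG1 (10.6 ± 0.209) and IGF1R, the receptor of insulin-like growth factor (8.53 ± 0.216), came next. HBEGF stood at 1.91 ± 0.305 FPKM and EREG at 0.0405 ± 0.0182 FPKM, the lowest level. In this order ERBB2, TGFA and NRG1 were neighbours whose control libraries overlapped, and each other neighbouring pair was separated by library ranges that did not overlap. After knockdown the order of the first 4 was kept (88.8 ± 4.18, 37.1 ± 2.65, 19.3 ± 1.14 and 15.6 ± 0.525 FPKM, SD, n = 4 each), TGFA (14.6 ± 0.596) overlapped with ERBB3 above it and with ERBB2 (14.5 ± 1.27) below it, and NRG1 (6.96 ± 0.39) came after IGF1R (7.61 ± 0.353), again with overlap.

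The promoters of 5 members are shown here to set the sequence beside the values that follow: ERBB2 and TGFA rose, IGF1R fell, and AREG and EREG are neighbours on chromosome 4 with very different levels. Each is the 250 bases before the transcription start that RefSeq lists on GRCh38.p14, written 5′ to 3′ on the gene's strand, with capitals for any match on either strand to the AP-1 letters TGANTCA, the first letters of the cAMP response element, TGACGTC, the ETS letters GGAAGT, the SP1 letters GGGCGG or the TATA box letters TATAAA. Their positions are chr17:39687844-39688093 on the plus strand for ERBB2, chr2:70553447-70553696 on the minus strand for TGFA, chr15:98648289-98648538 on the plus strand for IGF1R, and chr4:74444886-74445135 and chr4:74364895-74365144 on the plus strand for AREG and EREG. The TGFA window lies inside the annotated gene, which reaches to 70553826, so another start lies further upstream.
ERBB2: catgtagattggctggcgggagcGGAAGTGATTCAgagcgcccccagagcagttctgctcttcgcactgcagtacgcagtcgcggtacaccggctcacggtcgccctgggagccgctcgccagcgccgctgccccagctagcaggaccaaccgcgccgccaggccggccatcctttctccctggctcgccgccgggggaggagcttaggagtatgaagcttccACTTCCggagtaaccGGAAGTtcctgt
TGFA: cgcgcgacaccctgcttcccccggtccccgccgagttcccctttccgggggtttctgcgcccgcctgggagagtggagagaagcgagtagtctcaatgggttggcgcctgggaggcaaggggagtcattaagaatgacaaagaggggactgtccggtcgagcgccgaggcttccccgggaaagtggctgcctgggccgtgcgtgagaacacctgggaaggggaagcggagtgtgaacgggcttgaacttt
IGF1R: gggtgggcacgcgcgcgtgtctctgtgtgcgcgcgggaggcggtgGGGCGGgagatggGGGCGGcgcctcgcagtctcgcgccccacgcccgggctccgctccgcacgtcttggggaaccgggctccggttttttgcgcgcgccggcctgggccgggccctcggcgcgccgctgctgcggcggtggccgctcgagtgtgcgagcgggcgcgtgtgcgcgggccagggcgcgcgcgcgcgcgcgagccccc
AREG: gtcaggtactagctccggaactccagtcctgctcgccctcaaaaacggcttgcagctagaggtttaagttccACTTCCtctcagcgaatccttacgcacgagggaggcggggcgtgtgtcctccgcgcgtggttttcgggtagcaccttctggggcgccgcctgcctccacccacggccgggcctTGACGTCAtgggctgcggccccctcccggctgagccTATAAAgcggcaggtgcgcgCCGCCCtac
EREG: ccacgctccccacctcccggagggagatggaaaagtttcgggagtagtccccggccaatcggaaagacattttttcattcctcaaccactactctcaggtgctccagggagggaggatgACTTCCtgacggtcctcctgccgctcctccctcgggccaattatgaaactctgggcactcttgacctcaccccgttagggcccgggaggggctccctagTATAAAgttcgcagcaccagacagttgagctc
The ERBB2 window held 3 ETS matches, which begin 227, 27 and 12 bases before the start, and 1 AP-1 match at 222 bases that overlaps the first of them. AREG and EREG each held a TATA box match, at 29 and 32 bases before the start, and an ETS match each, at 178 and 131 bases. AREG also held overlapping matches on both strands for the cAMP response element at 65 and 64 bases and an SP1 match at 9 bases. IGF1R held 2 SP1 matches, at 205 and 192 bases, and TGFA held no match to these letters. Of 9615 tested genes with a promoter in the same table, 24.0% held the ETS letters, 3.84% AP-1, 5.29% the cAMP response element, 68.2% SP1 and 5.24% the TATA box. In all, 8 of the 10 members were matched to that table. The EGFR entry starts inside the gene, well downstream of its first exon, and is not shown.

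**Figure D1:**
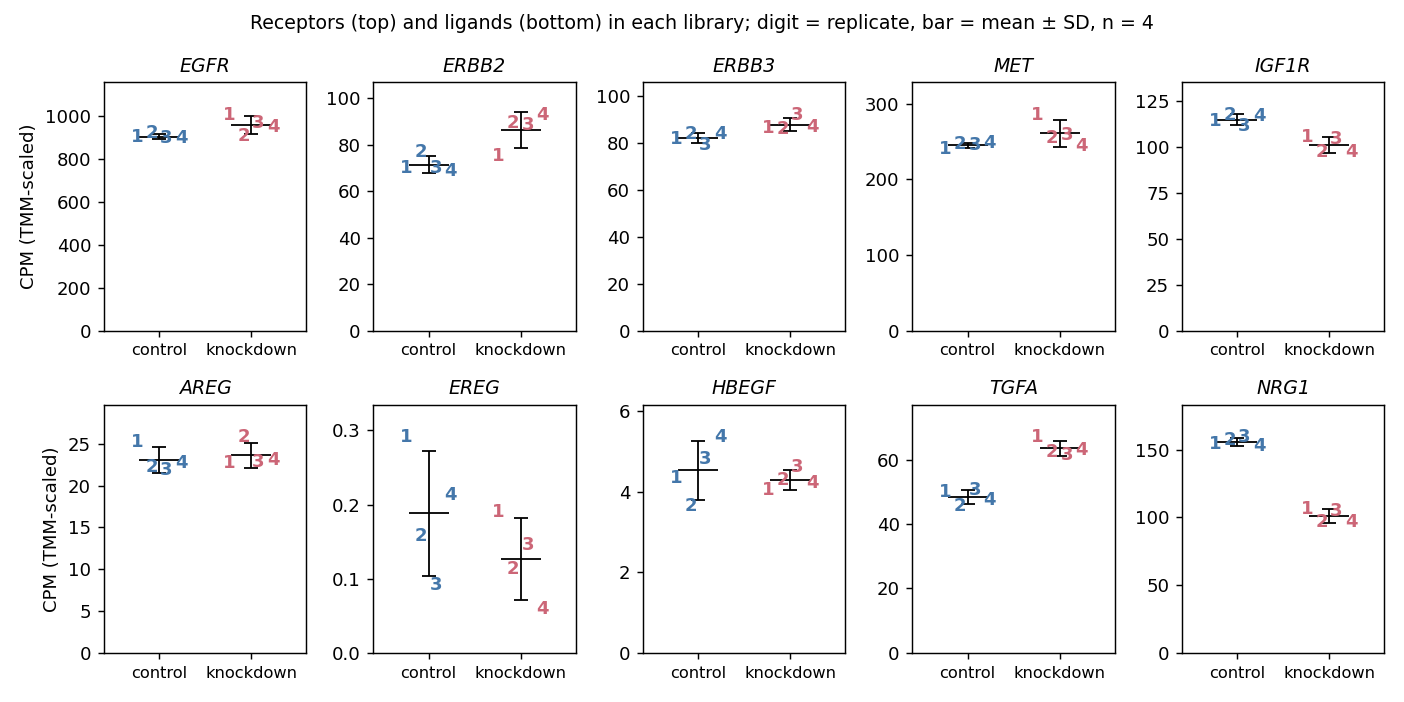
TMM-scaled CPM of the 5 receptors (top) and 5 ligands (bottom) in 4 control and 4 BOLA3-L knockdown libraries; each digit is a library's replicate number and the bar is the mean ± SD (n = 4), on axes that start at 0. TGFA libraries lie between 45.7 and 50.5 CPM in controls and between 61.5 and 67.0 CPM after knockdown, NRG1 libraries between 153 and 159 and between 96.4 and 107 CPM.

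The comparison asks which genes of the family differed after BOLA3-L knockdown. Of the 9 tested members, TGFA and ERBB2 rose, NRG1 and IGF1R fell, and EGFR, ERBB3, MET, AREG and HBEGF did not pass the test (edgeR quasi-likelihood F-test, Benjamini-Hochberg adjusted p under 0.05 over 11841 genes). All shifts were below 2-fold. The 4 calls among 9 members stand beside 30.7% of all tested genes called, 15.0% upward and 15.6% downward, and nothing is read from 9 genes against that share. The libraries of the groups did not overlap in 4 members, TGFA, NRG1, IGF1R and ERBB3, beside 30.2% of all tested genes. In bulk RNA, a change per cell and a change in the share of cells that express the gene cannot be told apart.

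NRG1, the ligand of ERBB3 and ERBB4, showed the largest shift of the members. NRG1 (NCBI gene 3084, chromosome 8, 31639245 to 32774046, plus strand, GRCh38.p14) gave 154, 157, 159 and 153 CPM in replicates 1 to 4 of the controls, and 107, 96.7, 105 and 96.4 CPM in replicates 1 to 4 of the knockdown. Every knockdown library lay below every control library. NRG1 fell from 155.9 ± 2.99 to 101.1 ± 5.31 CPM (SD, n = 4 each), to 64.8% of control (log2 change -0.63, SE 0.0421, edgeR adjusted p 3.9e-09), and only 4.52% of tested genes had a larger absolute log2 change. GENCODE v29 lists 17 start positions for its coding transcripts, and the counts are per gene, so its isoforms are not separated.

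TGFA, a ligand of EGFR, moved the other way. TGFA (NCBI gene 7039, chromosome 2, 70447284 to 70553826, minus strand) gave 49.96, 45.7, 50.5 and 47.6 CPM in replicates 1 to 4 of the controls, and 67.0, 62.5, 61.5 and 62.9 CPM in replicates 1 to 4 of the knockdown. The groups did not overlap. TGFA rose from 48.4 ± 2.22 to 63.5 ± 2.41 CPM (SD, n = 4 each), to 131.0% of control (log2 change 0.39, SE 0.049, edgeR adjusted p 9.0e-06).

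The other EGFR ligands gave no call. AREG (NCBI gene 374, chromosome 4, 74445136 to 74455005, plus strand), the most abundant EGFR ligand on the deposited FPKM scale but below TGFA in CPM and with median coding transcript lengths, gave 25.3, 22.3, 21.8 and 22.7 CPM in the controls, and 22.8, 25.8, 22.8 and 23.1 CPM in the knockdown. The ranges overlapped almost wholly, and AREG did not pass at a log2 change of 0.04 (SE 0.066, edgeR adjusted p 0.703). Without BOLA3-L knockdown replicate 2, the highest AREG library, the value was -0.01 (adjusted p 0.951, with 0.394 to 0.951 over all alternatives). HBEGF (NCBI gene 1839, chromosome 5, 140332843 to 140346603, minus strand), whose precursor also acts on neighbouring cells, gave 4.33, 3.63, 4.79 and 5.35 CPM in the controls, and 4.03, 4.28, 4.62 and 4.20 CPM in the knockdown. All 4 knockdown libraries lay within the control range, and the log2 change of -0.08 (SE 0.136) did not pass (edgeR adjusted p 0.694). It was 0.01 without control replicate 4 (adjusted p 0.968, with 0.392 to 0.968 over all alternatives). EREG (NCBI gene 2069, chromosome 4, 74365145 to 74388749, plus strand) was read 9, 5, 3 and 7 times in the controls and 6, 4, 5 and 2 times after knockdown, near the limit of 3 counts. Without the filter on low counts the log2 change of EREG was -0.55 and did not pass (edgeR adjusted p 0.501). At this depth a difference in EREG was neither shown nor excluded. Its neighbour AREG, on the same strand, had 706 to 910 counts per library.

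Among the receptors, ERBB2 rose and IGF1R fell. ERBB2 (NCBI gene 2064, chromosome 17, 39688094 to 39728658, plus strand) gave 69.8, 76.9, 70.1 and 68.7 CPM in replicates 1 to 4 of the controls, and 74.98, 89.4, 88.3 and 92.9 CPM in replicates 1 to 4 of the knockdown. Knockdown replicate 1 lay below control replicate 2, so the groups overlapped by this pair, while the other 3 knockdown libraries lay above every control. ERBB2 rose from 71.4 ± 3.74 to 86.4 ± 7.87 CPM (SD over 4 libraries each; log2 change 0.28, SE 0.0589, edgeR adjusted p 0.00158). The GC content of its transcripts was 59.5%, against a median of 49.3% over tested genes. The log2 change was 0.34 without BOLA3-L knockdown replicate 1 and 0.27 with offsets corrected for GC content. Exons of the genes MIEN1 and PGAP3 on the opposite strand cover 5.53% and 1.88% of the exonic bases of ERBB2, and no source used here says whether the counting used strand.

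IGF1R (NCBI gene 3480, chromosome 15, 98648539 to 98964530, plus strand), the receptor of the insulin-like growth factors, gave 114, 118, 111 and 117 CPM in the controls, and 106, 97.6, 105 and 97.5 CPM in the knockdown. Every knockdown library lay below every control library. IGF1R fell from 115.1 ± 2.83 to 101.3 ± 4.35 CPM (SD, n = 4 each), to 88.0% of control (log2 change -0.18, SE 0.0417, edgeR adjusted p 0.00256). Among tested genes 31.1% had a larger absolute log2 change.

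EGFR, ERBB3 and MET were each slightly higher after knockdown on average without a call. EGFR (NCBI gene 1956, chromosome 7, 55019017 to 55211628, plus strand) gave 905, 923, 899.7 and 897 CPM in the controls, and 1008, 907, 967 and 951 CPM in the knockdown. Knockdown replicate 2 lay within the control range and the other 3 lay above it. The log2 change of 0.08 (SE 0.0338) had an edgeR adjusted p of 0.0782. ERBB3 (NCBI gene 2065, chromosome 12, 56080108 to 56103505, plus strand) gave 81.5, 83.6, 79.2 and 83.8 CPM in the controls, and 86.5, 85.7, 92.0 and 86.8 CPM in the knockdown. Its groups did not overlap, yet the log2 change of 0.10 (SE 0.042) did not pass (edgeR adjusted p 0.0877). MET (NCBI gene 4233, chromosome 7, 116672196 to 116798377, plus strand) gave 241, 246, 246 and 248 CPM in the controls, and 285, 255, 259 and 244 CPM in the knockdown. Knockdown replicate 1 was the highest and replicate 4 lay within the control range, and MET did not pass at a log2 change of 0.09 (SE 0.0425, edgeR adjusted p 0.128).

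These 3 receptors lay close to the threshold, and settings moved them across it. With offsets corrected for transcript GC content, an alternative chosen after seeing the data under which 41.6% of all tested genes were called, 20.1% upward and 21.6% downward, EGFR (log2 change 0.08, edgeR adjusted p 0.0320), ERBB3 (0.09, adjusted p 0.0322) and MET (0.09, adjusted p 0.0110) passed. Leaving out BOLA3-L knockdown replicate 2 brought EGFR past the threshold (adjusted p 0.0292), leaving out BOLA3-L knockdown replicate 1 did so for ERBB3 (0.0167), and leaving out BOLA3-L knockdown replicate 4 for MET (0.0459). Over all alternatives the adjusted p ran from 0.0292 to 0.173 for EGFR, from 0.0167 to 0.246 for ERBB3 and from 0.0110 to 0.258 for MET, with log2 changes above 0 throughout. NRG1, TGFA, ERBB2 and IGF1R passed with the same direction under each of the 18 alternatives run.

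**Figure D2:**
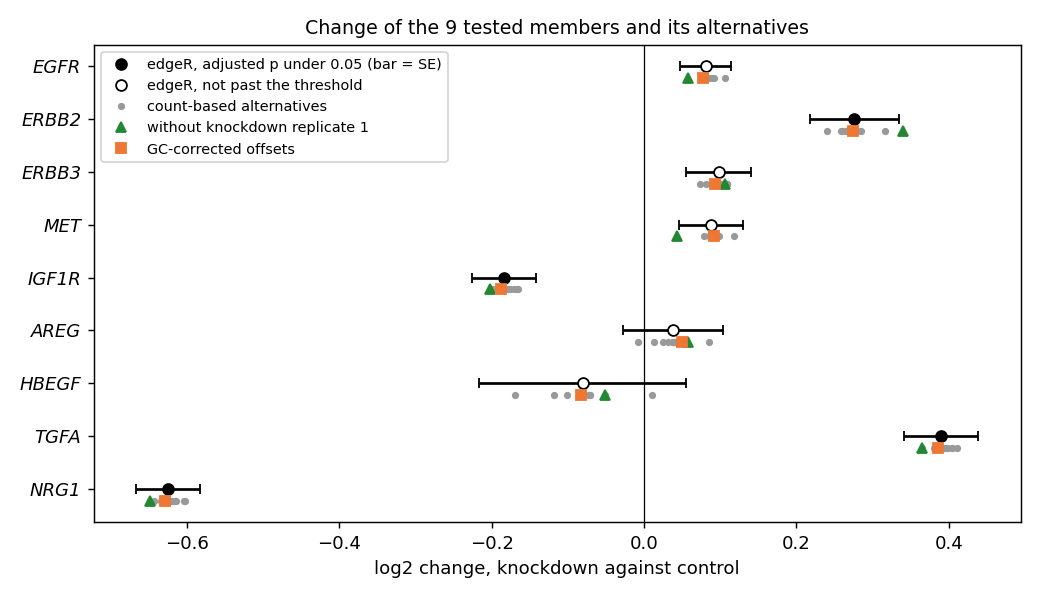
Log2 change between BOLA3-L knockdown and control for the 9 tested members (black circles with SE, filled where the edgeR adjusted p is under 0.05), with the values of the count-based alternatives below each. TGFA (0.39) and ERBB2 (0.28) lie right of 0 and NRG1 (-0.63) and IGF1R (-0.18) left of it under each alternative, while AREG and HBEGF straddle 0.

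The spread between libraries was compared between the groups. The coefficient of variation of EGFR was 1.28% in controls and 4.35% after knockdown, that of ERBB2 5.24% and 9.10%, that of MET 1.30% and 6.79%, and that of NRG1 1.92% and 5.25%. Without BOLA3-L knockdown replicate 1 the knockdown values were 3.31% for EGFR, 2.69% for ERBB2, 3.07% for MET and 4.79% for NRG1. That of ERBB2 then lay below its control value, and those of EGFR, MET and NRG1 stayed above theirs. TGFA had 4.58% and 3.80% (1.17% without that library), HBEGF 16.1% and 5.79%, AREG 6.69% and 6.18%, ERBB3 2.61% and 3.27%, and IGF1R 2.46% and 4.29%. These are values of 4 libraries each, with no test. Within the knockdown group, NRG1, TGFA, EGFR, MET and IGF1R were each highest in replicate 1, and ERBB2, AREG and HBEGF were lowest there.

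On the FPKM scale the summed level of the 5 ligands differed between the groups by less than the SD within them, a statement that holds for the deposited gene lengths only, and its make-up was not the same. The ligands summed to 42.0 ± 1.39 FPKM in controls and 42.7 ± 0.999 FPKM after knockdown (SD, n = 4 each). Within that sum, TGFA held 26.1% ± 0.824 in controls and 34.2% ± 1.31 after knockdown, NRG1 25.2% ± 1.14 and 16.3% ± 0.964, AREG 44.1% ± 1.74 and 45.1% ± 2.03, HBEGF 4.53% ± 0.721 and 4.29% ± 0.3, and EREG 0.0956% ± 0.0404 and 0.0647% ± 0.028. On these lengths TGFA and NRG1 held like shares in controls and unlike shares after knockdown. The 5 receptors summed to 151.9 ± 2.23 FPKM and 163.6 ± 5.82 FPKM. Of that sum EGFR held 54.5% ± 0.319 and 54.3% ± 0.758, MET 22.7% ± 0.363 and 22.7% ± 1.02, and ERBB3 9.45% ± 0.191 and 9.53% ± 0.353. The share of ERBB2 was 7.77% ± 0.307 and 8.88% ± 1.03, and that of IGF1R 5.61% ± 0.0946 and 4.65% ± 0.082. The shares describe chosen genes and were not tested.

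Both the sums and the shares depend on the length assigned to each gene. The deposited FPKM values use 14626 bases for NRG1, 4380 for TGFA and 1234 for AREG, while the median coding transcript of GENCODE v29's basic set has 1973.5, 985 and 1098 bases. With those transcript lengths NRG1 would hold 52.3% of the ligand sum in controls and 36.8% after knockdown, TGFA 32.5% and 46.3%, and AREG 13.9% and 15.5%. The ligand sum, alike on the deposited FPKM scale, was 232 ± 3.83 CPM in controls and 192.6 ± 6.02 CPM in the knockdown when lengths were left out, which is 83.0% of control. With the median coding transcript lengths it came to 92.0% of control, and on both of these scales the knockdown libraries lay below every control library. The receptor sum came to 107.7% of control in FPKM, 105.3% in CPM and 106.2% with the transcript lengths, and only in FPKM did the groups not overlap. The FPKM values use plain library totals, whereas the other 2 scales also carry the TMM factors. These were 0.992 to 0.995 in controls and 1.003 to 1.012 after knockdown. The sums therefore differ between FPKM and the other scales by library scaling as well as by length. TGFA went up and NRG1 went down in share on either length, whereas which ligand comes first depended on the length.

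**Figure D3:**
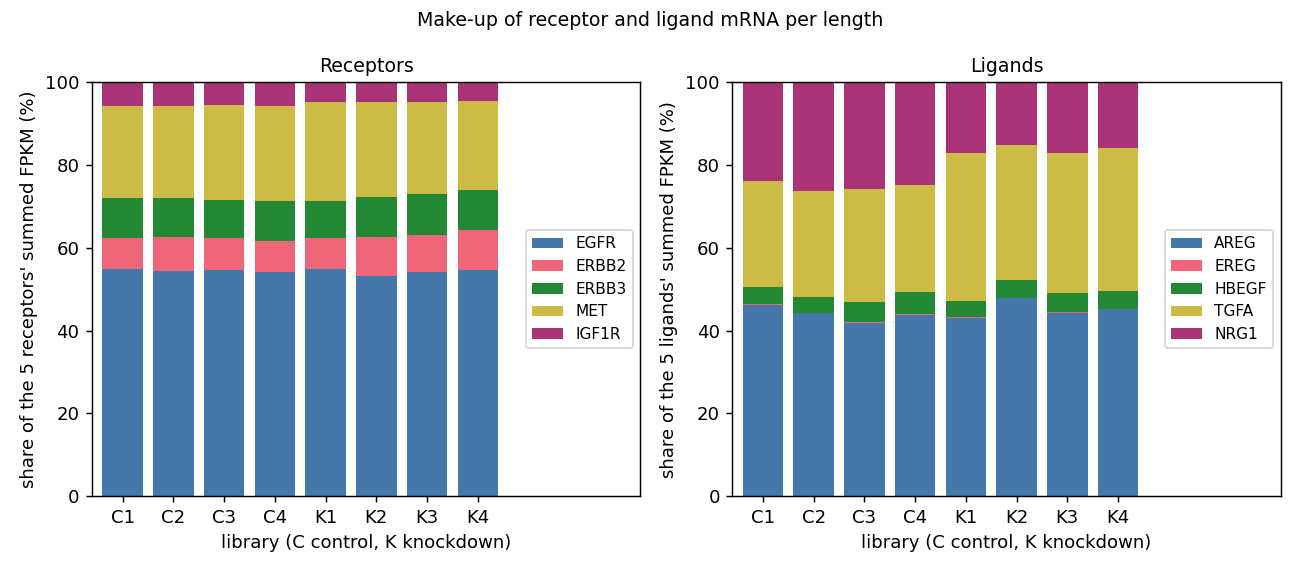
Share of each gene in the summed FPKM of the 5 receptors (left) and the 5 ligands (right), in percent, for control libraries C1 to C4 and BOLA3-L knockdown libraries K1 to K4. In the ligand panel TGFA widens from 26.1% to 34.2% and NRG1 narrows from 25.2% to 16.3% on average, while EGFR stays near 54.5% of the receptor panel.

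The remaining family members were scarce. Of 7 other ERBB receptors and ligands, ERBB4, EGF, BTC, NRG2 and NRG3 had at most 6, 2, 5, 13 and 1 counts in any library and were not tested. EPGN, a further EGFR ligand, rose from 0.286 ± 0.0953 to 0.805 ± 0.196 CPM (SD over 4 libraries each; log2 change 1.47, edgeR adjusted p 0.0022) at a level of at most 33 counts. NRG4, a ligand of ERBB4 named after its value was seen, stood at 0.949 ± 0.034 and 0.664 ± 0.143 CPM and did not pass (adjusted p 0.128).

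Of 14 tested genes of ligand shedding, 4 fell and 0 rose in edgeR and DESeq2, with 1 gene higher at an unadjusted edgeR p under 0.05 (median log2 change 0.00 over the list and 0.00 over all tested genes). Over all tested genes 15.6% fell and 15.0% rose in edgeR. ADAM17, the main sheddase of EGFR ligands, fell from 126 ± 2.70 to 107 ± 6.08 CPM (log2 change -0.23, adjusted p 0.00063). The proteases ADAM9 and ADAM15 (-0.13 and -0.14) and the inhibitor TIMP3 (-1.21, from 0.927 CPM in controls) also fell. ADAM9 and ADAM15 kept their call under 9 and 7 of 18 alternatives (adjusted p 6.6e-05 to 0.164 and 0.000441 to 0.185). ADAM10, the other main sheddase, named after its value was seen, stood at 152 and 153 CPM. With control replicate 2, 3 or 4 left out, or replicate 3 of the BOLA3-L knockdown, 2 genes of the list fell. In each of these fits fewer genes fell over all tested genes as well than in the main fit. In the list 1 gene rose without control replicate 3, where fewer genes rose over all tested genes, and 2 rose without BOLA3-L knockdown replicate 1. Under the last setting 21.2% of all tested genes rose.

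Of 9 tested genes around MET, 2 fell and 1 rose (median log2 change 0.02), where 15.6% and 15.0% of all tested genes did so. CD44, which presents growth factors to MET, fell from 1000.0 to 822 CPM (-0.28) and MST1R, the receptor closest to MET, from 66.8 to 56.1 CPM (-0.25). MST1, the ligand of MST1R, which has near-identical pseudogene copies that counting may not separate, rose by 0.47 from 2.15 CPM with an adjusted p of 0.0499, a call lost without any single control library or without BOLA3-L knockdown replicate 2 or 3 (0 rose then), while 5 genes rose without BOLA3-L knockdown replicate 1, a setting under which 42.7% of all tested genes were called, 21.2% upward and 21.5% downward. In each fit that lost the MST1 call by leaving out a library, fewer genes rose over all tested genes as well than in the main fit. The adjusted p of MST1 ran from 0.0271 to 0.189 over the alternatives. HGF, the ligand of MET, reached at most 3 counts.

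Of 10 tested genes around IGF1R, 3 fell and 2 rose (median log2 change -0.15), where 15.6% and 15.0% of all tested genes did so. GRB10, an adaptor that restrains insulin and IGF receptors, fell from 2.40 ± 0.364 to 0.992 ± 0.152 CPM (-1.27), and IGF2R and IRS1, the scavenging receptor of IGF2 and the docking protein of IGF1R, each fell by 0.22 on the log2 scale. INSR, the insulin receptor, rose from 9.27 ± 0.365 to 12.4 ± 0.801 CPM (0.43, adjusted p 0.000632). STC2, named after its value was seen, rose by 0.21. Only 1 gene rose with replicate 3 or 4 of either group left out, or with the replicate number as a block. In each of these fits fewer genes rose over all tested genes as well than in the main fit. The ligands IGF1 and IGF2 reached at most 3 and 7 counts.

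Downstream of the receptors, 9 of 33 tested adaptors and effectors rose and 7 fell (median log2 change 0.02). For this list and the next, the shares over all tested genes were 15.0% risen and 15.6% fallen. The docking protein GAB2 rose from 48.0 to 66.1 CPM (0.46) and MAP2K1, the kinase that activates ERK, from 115 to 136 CPM (0.23), while the adaptor SHC1 (-0.27) and the GTPase NRAS (-0.26) fell. Without BOLA3-L knockdown replicate 1, 11 fell, a setting under which 21.5% of all tested genes fell. Of 28 tested genes of receptor inhibition and degradation 1 rose and 4 fell (median log2 change -0.05): the phosphatase PTPRJ rose (0.36), and SOCS2 (-0.39), LRP1 (-0.26), the phosphatase PTPRF (-0.15) and the adaptor SH3KBP1 (-0.12), the last named after its value was seen, fell. ERRFI1, a feedback inhibitor of EGFR named after its value was seen, did not pass (adjusted p 0.156), at 21.1 ± 1.56 CPM in controls and 23.0 ± 1.06 CPM in the knockdown. In that list 3 rose and 11 fell without BOLA3-L knockdown replicate 1, the setting with 42.7% of all genes called.

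Of 23 other tested receptor tyrosine kinases 5 rose and 2 fell (median log2 change 0.03). Beside this list and the next stand 15.0% of all tested genes risen and 15.6% fallen. FGFR2, a receptor of fibroblast growth factors, rose from 172 to 199 CPM (0.21) and INSR by 0.43, while the collagen receptor DDR1 fell from 755 to 655 CPM (-0.21) and MST1R by 0.25 (-0.25). INSR and MST1R were already counted in the lists around IGF1R and MET, so these lists are not separate. Of 20 tested genes that ERK signalling is known to induce or to use as feedback, 5 rose and 7 fell (median log2 change -0.07). EGR1, an immediate early transcription factor, rose from 60.2 ± 2.71 to 78.5 ± 6.20 CPM (0.38), and IER3 (-0.46), the cytokine IL1A (-0.43) and the ERK inhibitor SPRED1 (-0.44) fell.

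**Figure D4:**
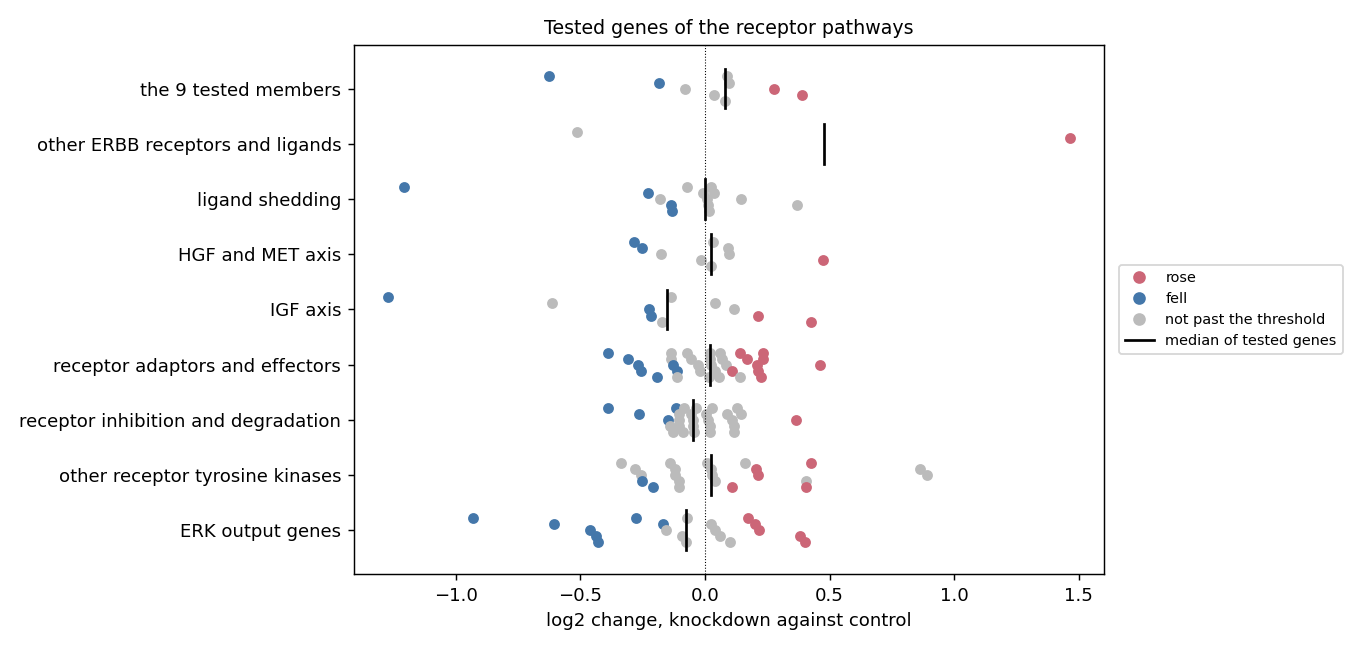
Log2 change between BOLA3-L knockdown and control of every tested gene in the 9 tested members and 8 pathway lists, each dot a gene, red where it rose, blue where it fell, grey where it did not pass, with the median as a black line. Each group with more than 5 tested genes holds dots on both sides of 0, and their medians lie between -0.15 and 0.08.

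NRG1 had the smallest p of the members, and the 5 genes (of those averaging 5 CPM or more) whose log2 CPM followed it most closely over the 8 libraries were NAV1, TP63, LUZP1, GNB1 and CAV1. Pearson's r was 0.998, 0.996, 0.995, 0.994 and 0.994, over libraries that share the division into 2 groups. With the group means removed, r was 0.97, 0.88, 0.82, 0.88 and 0.70 over the same 8 libraries. The genes were picked by their correlation over these libraries, so neither set of r values is independent of the choice. TP63, which sets the identity of basal squamous cells, fell from 309 ± 5.33 to 219.9 ± 11.7 CPM (log2 change -0.49), and CAV1, which encodes caveolin, from 1121 ± 12.2 to 717 ± 32.9 CPM (-0.64).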

How the data were processed

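The tables used hold counts and FPKM values per gene, both deposited by the authors for 4 control and 4 BOLA3-L knockdown libraries of poly(A) RNA. Reads were filtered with fastp, per the labels' series text, and hg38 is named in the submitters' processing notes. The choice of aligner, counter, annotation and strand setting was not given in the sources used here. Every FPKM value above 0 in the deposited table equalled the deposited count scaled by library total and 1 length per gene (relative tolerance 1e-06), so the tables are not independent.

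Groups were compared with edgeR 4.0.16 (R 4.3.3) on the counts: TMM scaling, filterByExpr, the robust quasi-likelihood F-test, two-sided, with Benjamini-Hochberg adjustment over all 11841 tested genes. The standard error is the absolute log2 change divided by the square root of F. The procedure was tested on simulated data that held no library standing apart as BOLA3-L knockdown replicate 1 does, so its handling of such a library was not tested. CPM values are TMM-scaled. The members and lists were chosen with earlier results of these data known. The genes named are the members, BOLA3, up to 4 called genes of each list with the smallest p, and 5 genes most correlated with the member of smallest p (mean of at least 5 CPM). Other genes named (cell type markers, untested ligands and receptors, NRG4, ADAM10, STC2, SH3KBP1, ERRFI1 and the genes beside ERBB2) fall outside that rule and were chosen after their values were seen. Alternatives were RLE and upper quartile scaling, other filters, DESeq2 1.42.0, limma 3.58.1 on log2 FPKM with pseudocounts of 1 and 0.1, a block for the replicate number, fits without 1 library in turn, and, chosen after seeing the data, offsets corrected for transcript GC content and shares and sums with another gene length. Of the tested genes, 11584 (97.8%) matched a GENCODE v29 transcript for GC content. Promoters and gene positions came from RefSeq on GRCh38.p14. Library totals were 31178036 to 35147860 counts, and 3 counts were taken as the detection limit, which covers counting error only.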

Additional observations from a re-analysis of the deposited data

Results flagged for a closer look

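Among the 10 members and BOLA3, each in both groups of 4 libraries (22 groups of values), a single library lay far from the other 3 in 2 groups. ERBB2 stood at 76.9 CPM in control replicate 2, and the next control library at 70.1 CPM. AREG stood at 25.8 CPM in BOLA3-L knockdown replicate 2, and the next knockdown library at 23.1 CPM. In these groups the gap made up 0.834 and 0.887 of the whole range, above Dixon's critical value for 4 samples. Chance alone marks about 1 in 20 groups.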

How the results depend on the processing

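NRG1, TGFA, ERBB2, IGF1R and BOLA3 kept direction and call in all 18 alternatives, with log2 changes of -0.65 to -0.54, 0.36 to 0.41, 0.24 to 0.34, -0.20 to -0.15 and -1.71 to -1.56. The cause of the differences below was not tested. With offsets corrected for GC content EGFR (0.077), ERBB3 (0.093) and MET (0.091) passed, and ERBB3 passed in limma with no minimum (0.11). With 1 library left out, the log2 change ran from 0.057 to 0.11 for EGFR, from 0.074 to 0.11 for ERBB3, from 0.043 to 0.12 for MET, from -0.0077 to 0.085 for AREG and from -0.17 to 0.010 for HBEGF, so the last 2 changed sign, AREG without BOLA3-L knockdown replicate 2 and HBEGF without control replicate 4. EREG, untested in the filtered fit, gave -0.55 with no filter (edgeR adjusted p 0.501) and -0.02 in limma with no minimum (0.453).

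Calls over all tested genes moved with the setting, from 30.7% in the main fit. With GC offsets 41.6% were called, 20.1% upward and 21.6% downward. Without BOLA3-L knockdown replicate 1, 42.7% were called, 21.2% upward and 21.5% downward. By number of genes over all tested genes, every limma fit called fewer fallen than the main fit. More rose in limma with the FPKM minimum and fewer with no minimum. Upper quartile scaling called more risen and fewer fallen, and DESeq2 more of both. With no filter or the CPM minimum fewer fell and slightly more rose, and with RLE factors the reverse. Each fit without 1 library, apart from BOLA3-L knockdown replicate 1, called fewer risen and fewer fallen. List counts moved as follows. EPGN fell below the minimum and was not tested, which left 0 risen among the other ERBB genes, with at least 1 CPM in 4 libraries and in limma with the FPKM minimum. In ligand shedding, 1 rose in limma with the FPKM minimum at either pseudocount, and 2 fell with the CPM minimum, 1 with either limma pseudocount and 2 in limma with no minimum. Around MET, 0 rose with RLE factors, with no filter, with the CPM minimum and in limma with no minimum, and 3 rose with GC offsets. Around IGF1R, 1 rose in limma with no minimum and 5 fell with GC offsets. Among inhibitors, 2 rose with upper quartile scaling, the CPM minimum and DESeq2, 3 in all 3 limma fits, and 5 rose and 9 fell with GC offsets. Among other receptor tyrosine kinases, 3 rose in limma with no minimum and 5 fell with GC offsets. With 1 library left out, the counts ran from 0 to 2 risen and 2 to 4 fallen in ligand shedding, from 0 to 5 risen around MET, from 1 to 3 risen around IGF1R, from 5 to 11 fallen among adaptors, and from 1 to 3 risen and 3 to 11 fallen among inhibitors.

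With the replicate number as a block, 3392 genes were called, 1656 risen and 1736 fallen, and 1 gene rose around IGF1R. The members kept their calls under the block, and ADAM9 lost its own (-0.13, edgeR adjusted p 0.0515). The deviations of same-numbered libraries from their group means had correlations of 0.0057, -0.017, 0.088 and -0.079, and not every library correlated best with its own number, so the numbers were not taken to pair the samples.

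Shares changed with the length used. With counts, the knockdown share of TGFA stayed within the SD of its FPKM share (34.2% ± 1.31), as did both EREG shares. The next sentence leaves these out. With counts in place of FPKM, control and knockdown shares were 63.8% and 64.1% for EGFR, 5.03% and 5.80% for ERBB2, 5.78% and 5.88% for ERBB3, 17.3% and 17.4% for MET, 8.11% and 6.78% for IGF1R, 9.92% and 12.3% for AREG, 1.95% and 2.23% for HBEGF, 20.9% for TGFA in controls, and 67.2% and 52.5% for NRG1. With the median coding transcript length they were 69.4% and 69.1% for EGFR, 4.84% and 5.54% for ERBB2, 7.34% and 7.41% for ERBB3, 15.6% and 15.6% for MET, 2.82% and 2.34% for IGF1R, 13.9% and 15.5% for AREG, 0.0270% and 0.0196% for EREG, 1.26% and 1.29% for HBEGF, 32.5% and 46.3% for TGFA, and 52.3% and 36.8% for NRG1. The ligand sum after knockdown was 101.6% of control in FPKM, 83.0% in CPM and 92.0% with that length. The CPM and transcript length sums carry TMM factors, and the FPKM sum does not. EREG had at most 9 counts, and HBEGF, with 115 to 176 counts, had the largest standard error of the tested members (0.136).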

Other observations

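ERBB2 rose, and of 4 genes beside it on chromosome 17, 3 did not pass the test and 1 fell. These neighbours were chosen after their values were seen. Among all tested genes 30.7% were called, 15.0% upward and 15.6% downward, and in 30.2% the groups did not overlap. Nothing is read from 4 genes against these shares. In CPM, PGAP3 had 22.6 ± 1.89 in the control group and 23.1 ± 1.65 in the knockdown group (SD over 4 libraries; log2 change 0.03, edgeR adjusted p 0.796), MIEN1 at 43.8 ± 1.72 and 44.6 ± 5.39 CPM (0.03, adjusted p 0.798), and STARD3 at 39.0 ± 1.43 and 38.5 ± 3.66 CPM (-0.02, adjusted p 0.856). GRB7, an adaptor that binds ERBB2, fell from 34.0 ± 1.08 to 27.5 ± 2.04 CPM (-0.31, adjusted p 0.00082), and its groups did not overlap.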
